A study of Mus musculus with 24 samples.

Results

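The suppressors of cytokine signalling, Socs1 to Socs7, and their relative Cish were followed by gene symbol through 4 kinds of activated mouse immune cells with (wild type, WT) and without (knockout, KO) miR-155. These 8 genes are 8 of the 20673 gene symbols counted, and all 8 had enough counts to be tested in each of the 4 cell types. Cytokine receptors signal through JAK kinases, which phosphorylate STAT transcription factors. STATs then switch on Cish, Socs1, Socs2 and Socs3, whose proteins bind the receptor or the kinase through an SH2 domain and recruit a ubiquitin ligase through the SOCS box, closing a negative feedback loop. Activation of these cells induces miR-155, a microRNA that lowers messenger RNAs holding sites for it, and Socs1 is one of its reported targets.

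The groups were splenic B cells given LPS at 25 ug/ml and IL-4 at 6.5 ng/ml, splenic CD11c+ dendritic cells given LPS at 100 ng/ml and GM-CSF at 20 ng/ml, thioglycollate-elicited peritoneal macrophages given LPS at 100 ng/ml, and CD4+CD25-CD44- T cells stimulated with CD3/CD28 beads, each from miR-155 KO and wild type mice with 3 libraries a group. The strain of both genotypes was C57BL/6J, and every group was activated in culture, so that no resting cells are among the controls. Dendritic cells of both genotypes came from mice carrying B16 melanoma cells that made Flt3 ligand. The sources used here give no age, knockout allele or length of activation. Since cell type, source and stimulus differ together, differences between cell types cannot be assigned to one of them.

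Library totals ran from 7428821 to 14219823 gene counts, and each member had between 32 and 3314 counts in a library. The 3 libraries of a condition are described as sequencing replicates and no animals are named, so p-values speak for the scatter among these libraries alone, and that scatter may be technical. Mir155 and Mir155hg are not among the symbols, and the targeted gene itself was not checked. Its neighbour Mrpl39 was lower in the KO of every cell type (log2 fold change -0.39, -1.05, -0.92 and -0.58 in B cells, dendritic cells, macrophages and T cells, edgeR adjusted p of 0.0048, 0.00021, 0.046 and 0.00052). Defining markers were present in B cells (Cd79a, 468 CPM in WT), T cells (Cd3e, 146 CPM), macrophages (Adgre1, 5970 CPM) and dendritic cells (Flt3, 1490 CPM). Within dendritic cells Cd209a was near 0 (0.0395 CPM in WT), and Itgax, which encodes the CD11c used to purify them, stood at 31.4 CPM against 263 CPM in WT macrophages. Of the other listed dendritic cell markers, Xcr1 (1.68 CPM) and Clec9a (5.63 CPM) were low in WT dendritic cells. H2-DMb2 (16 CPM) was far below WT B cells (307 CPM), while Zbtb46 (170 CPM) and Ccr7 (4430 CPM) were highest in dendritic cells. Timd4, listed for macrophages, was at 0.574 CPM in WT macrophages against 29.1 CPM in WT dendritic cells. WT macrophage libraries stood farthest apart from each other, with a median SD over genes of 0.25 on the log2 scale against 0.09 to 0.17 in the other 7 groups.

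The sequences that bear on the family are the microRNA, its site in Socs1 and the STAT motifs at the start of Cish and Socs3. Mature miR-155-5p (RefSeq, GRCm38.p6, chr16:84714143-84714165, plus strand) and the Socs1 site (GRCm38, chr16:10784195-10784224, minus strand, sequence written along the transcript) are given with the seed, bases 2 to 8, and the 8mer match to it in capitals. An 8mer pairs with the whole seed and has an A opposite the first base of the microRNA.
miR-155-5p: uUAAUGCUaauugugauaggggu
Socs1 site: cgctgtgccgcAGCATTAAgtgggggcgcc

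The Socs1 site began at base 20 of a 3' UTR of 1993 bases, in a gene annotated at chr16:10782240-10785536 (GRCm38). Socs6 carried an 8mer at base 3210 and a 7mer-A1, the form that lacks the last seed base, at base 316 of its 3' UTR of 4019 bases. No match of 6 or more bases was found in the longest 3' UTR of Socs2, Socs3, Socs4, Socs5, Socs7 or Cish. An 8mer was present in 2.99% of 21005 genes with an annotated 3' UTR. Among genes with a 3' UTR within 25% of the same length, 3.9% held one at the length of Socs1 and 8.3% at the length of Socs6.

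The motif TTCNNNGAA, bound by several STATs and the same on both strands, was searched from 250 bases before to 50 bases after the RefSeq start (GRCm38.p6). It is shown in capitals for Cish, the member that changed in KO dendritic cells, and for Socs3, the member highest in macrophages.
Cish start: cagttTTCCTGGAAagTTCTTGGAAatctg
Socs3 promoter: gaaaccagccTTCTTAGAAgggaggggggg

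Cish held 2 matches, beginning at bases 1 and 12 counted from the start (chr9:107296654-107296683, plus strand). Socs3 held 1, beginning at base -154 (chr11:117969501-117969530, minus strand). The windows of Socs1 and Socs4 held none. Of 32851 promoter windows of this length, 8.3% held at least 1 match and 0.457% at least 2. A match is a description of the letters only.

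Levels are counts divided by TMM-scaled library totals (CPM), given for the 3 libraries of a group in the order of their replicate numbers. Socs2, which restrains growth hormone and STAT5 signals, had 159, 157 and 147 CPM in WT dendritic cells against 10.2, 11.8 and 10.2 in T cells, 8.75, 12.8 and 3.22 in B cells and 3.32, 5.34 and 4.39 in macrophages. Dendritic cells were thus 14.4-fold above the next cell type (edgeR adjusted p = 9.9e-13), and T cells and B cells did not differ beyond their spread (adjusted p = 0.25). Macrophages were lower than B cells (adjusted p = 0.0067), a call lost without B_WT replicate 2 (adjusted p = 0.14).

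Socs3, the inhibitor of the IL-6 and G-CSF receptors, was highest in macrophages. WT macrophages had 248, 176 and 338 CPM against 13.3, 12.1 and 27.7 in dendritic cells, 15.6, 20 and 12.5 in B cells and 4.45, 4.88 and 4.34 in T cells. Macrophages stood 14.4-fold above dendritic cells (adjusted p = 4.5e-11). Dendritic cells and B cells did not differ beyond their spread (adjusted p = 0.69), and B cells were 3.52-fold above T cells (adjusted p = 8.1e-05).

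Cish, an inhibitor of STAT5-activating receptors such as those for IL-2 and GM-CSF, was highest in dendritic cells, at 173, 180 and 187 CPM in WT. B cells (62.6, 76.2 and 40.4) and T cells (60.9, 51 and 61.9) lay together (adjusted p = 0.87), 3.01-fold below dendritic cells for the nearer of them (adjusted p = 1.2e-07). Macrophages were lowest, with 16.3, 16.6 and 30.6 CPM (adjusted p = 1.1e-06 against T cells). No library of dendritic cells or of macrophages overlapped those of the other 3 cell types.

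Socs1, the inhibitor of interferon and common gamma chain signals, ran from dendritic cells (139, 138 and 148 CPM) through macrophages (64.6, 24.8 and 140) to B cells (45.6, 47.1 and 40.2) and T cells (31.2, 31.9 and 36.2). The macrophage libraries spanned 5.67-fold and reached from below the T cells to the dendritic cells. Dendritic cells were above macrophages (adjusted p = 0.019), a call lost without Mac_WT replicate 1 (adjusted p = 0.068). Macrophages were above B cells (adjusted p = 0.04) in the fit of all libraries, a call kept in 17 of 27 alternatives and lost on library totals alone (adjusted p = 0.46), without the filter on low counts and without any one of 8 libraries (each B_WT, each Mac_KO, Mac_WT replicate 3 and DC_WT replicate 1). B cells and T cells did not overlap but did not differ by the test (1.34-fold, adjusted p = 0.32). Dendritic cells were 3.19-fold above B cells (edgeR adjusted p = 0.00016) and 4.28-fold above T cells (adjusted p = 1.6e-05). Both of these calls were kept in 27 of 27 alternatives.

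Socs4, an inhibitor of the EGF receptor, ran from 43.2 CPM in dendritic cells through 34 in T cells and 33.4 in B cells to 28.2 in macrophages, and among neighbours in that order only dendritic cells and T cells differed (adjusted p = 0.019, or 0.42 on library totals alone, and lost without DC_WT replicate 3). Socs5, linked to IL-4 and EGF receptors, was 15.7 in macrophages, 12.9 in T cells and 12.5 in dendritic cells, neighbours that did not differ beyond their spread (adjusted p = 0.055 and 0.78), and 4.46 in B cells, 2.81-fold below dendritic cells (adjusted p = 6.3e-09). Socs6, which acts on KIT and insulin receptor signals, ran from 22.9 CPM in macrophages to 14.7 in B cells. Socs7, an adaptor of insulin signalling, ran from 17 in T cells to 11.8 in macrophages. No neighbours in the order of Socs6 or Socs7 differed beyond their spread. The ends of each order did differ. Socs7 was lower in macrophages than in T cells (-0.53, edgeR adjusted p = 0.0051), and Socs4 higher in dendritic cells than in macrophages (0.62, adjusted p = 2e-04). Both calls were kept in 27 of 27 alternatives. Socs6 was lower in B cells than in macrophages (-0.65, adjusted p = 0.0059), a call lost on library totals alone (adjusted p = 0.6) and without Mac_WT replicate 2.

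Over the cell types together all 8 members passed the test of WT levels, as did 98.1% of 12249 genes. For Socs6 that call (adjusted p = 0.014) was lost on library totals alone (adjusted p = 0.42), with the 12 WT libraries alone (adjusted p = 0.067) and in the fit with a replicate block (adjusted p = 0.075). For Socs7 (adjusted p = 0.027) it was lost without Mac_WT replicate 2 (0.097), T_WT replicate 1 (0.058) or T_WT replicate 2 (0.11). Of 48 tests of a member between a pair of cell types 30 passed, against a background of 80.2% of genes for B cells and dendritic cells, 82.4% for B cells and macrophages, 56.2% for B cells and T cells, 80.4% for dendritic cells and macrophages, 81.6% for dendritic cells and T cells and 83.8% for macrophages and T cells. Scaling on library totals alone moves the median gene by -0.64 to 0.53 (log2) between WT cell types. It turned Socs6 in macrophages against T cells from 0.57 to -0.08 and Socs5 from 0.28 to -0.36, which then passed the other way (adjusted p = 0.018). Against macrophages, Socs5 in dendritic cells turned from -0.32, a call (adjusted p = 0.034), to 0.10 (adjusted p = 0.53), and Socs6 from -0.21 to 0.22 (adjusted p = 0.3). The order with macrophages first does not hold for Socs5 or Socs6 under that scaling.

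**Figure D1:**
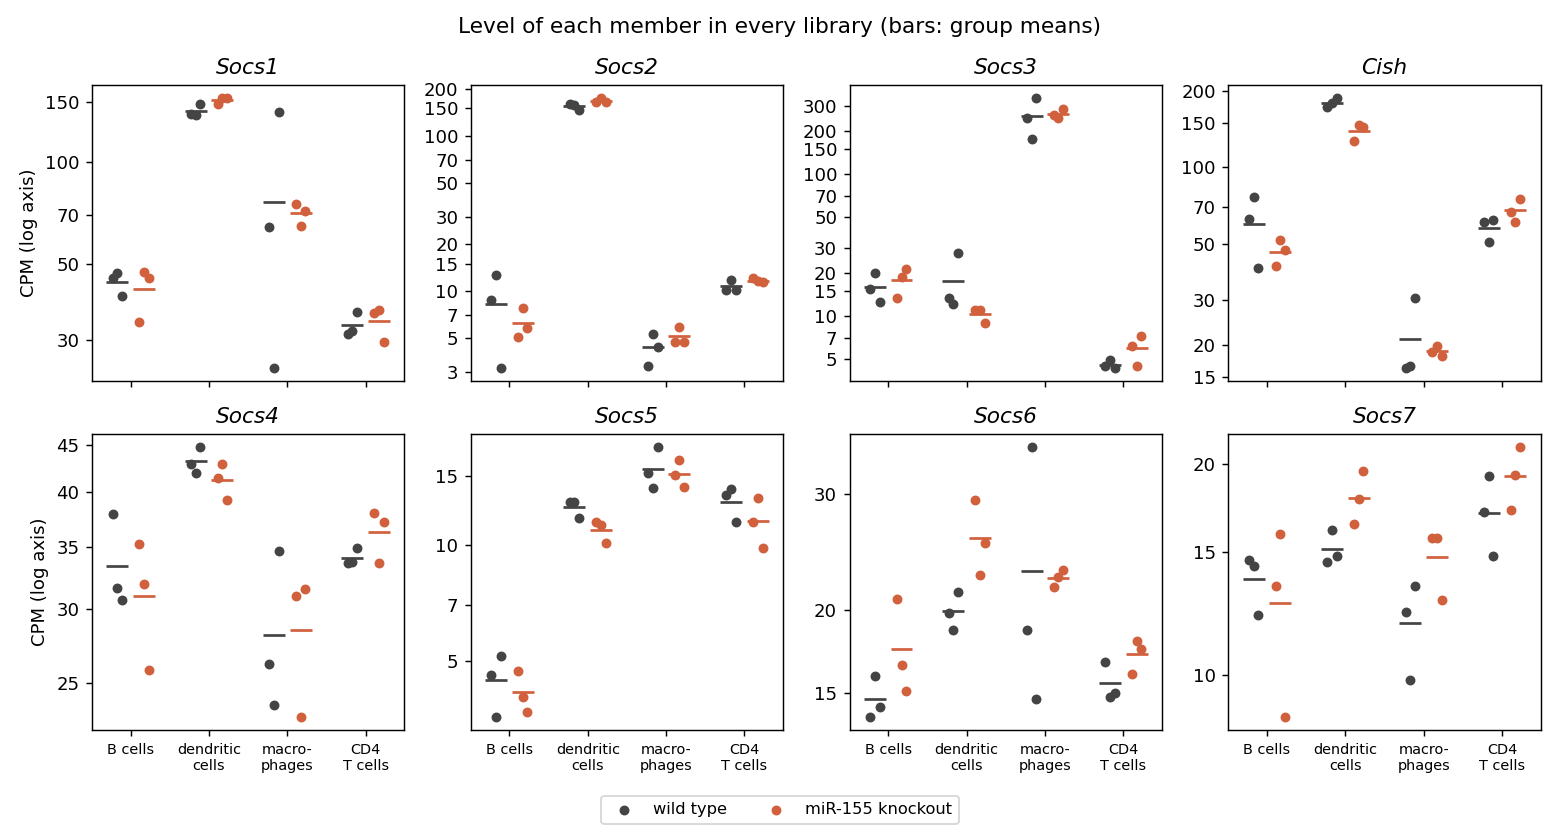
Level of each member in every library, in CPM on a log axis that differs between panels, for WT (grey) and KO (orange) libraries of the 4 cell types, with bars at the group means. Socs2 and Cish are highest in dendritic cells and Socs3 in macrophages, and the WT macrophage libraries of Socs1 spread from 24.8 to 140 CPM.

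Between genes, levels were set side by side per kilobase of the longest coding sequence. In WT dendritic cells Socs2 (258 ± 10.9), Cish (232 ± 9.34) and Socs1 (221 ± 8.83 CPM per kb, SD, n = 3) were at the 96, 95.4 and 95.1 percentile of tested genes. In WT macrophages Socs3 reached 375 ± 120 CPM per kb, the 96.6 percentile. In WT B cells Cish (77.2 ± 23.3) and Socs1 (69.3 ± 5.71) led, and in WT T cells Cish (74.9 ± 7.77) and Socs1 (51.8 ± 4.26). Socs5 was lowest of the family in B cells at 2.77 ± 0.495 CPM per kb. With the mean length over annotated coding sequences the Cish value in WT dendritic cells became 425 and that of Socs2 357 CPM per kb, which exchanged their order.

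**Figure D2:**
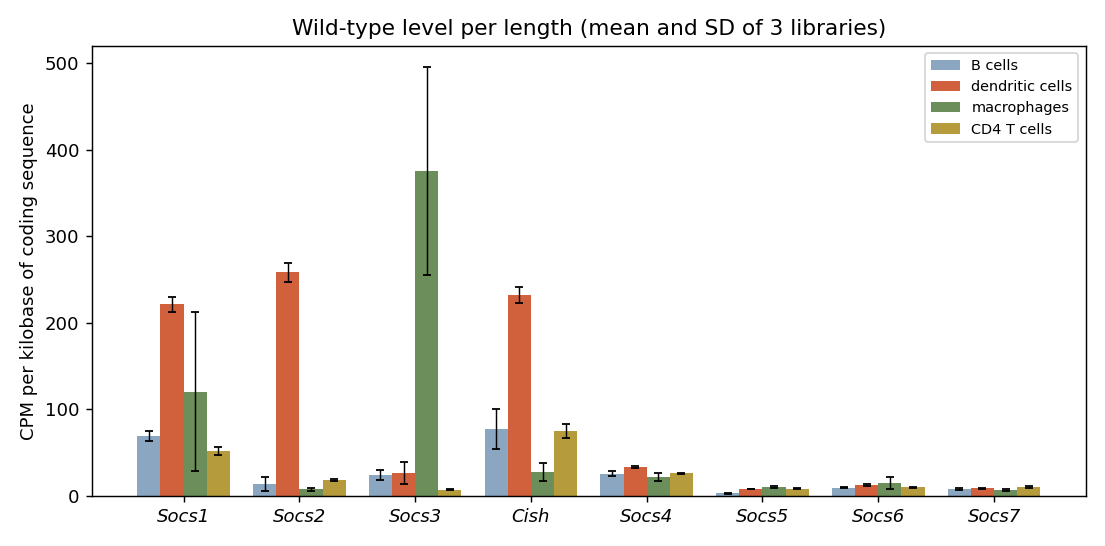
WT level of each member in CPM per kilobase of the longest annotated coding sequence, by cell type, as the mean and SD of 3 libraries. Socs3 in macrophages and Socs2, Cish and Socs1 in dendritic cells are the tallest bars, and Socs5, Socs6 and Socs7 reach at most 14.3 in every cell type.

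KO was then compared with WT within each cell type. Cish fell in KO dendritic cells and was the one member called in any cell type. KO libraries had 127, 147 and 144 CPM and WT libraries 173, 180 and 187 CPM, with every KO library below every WT library. The means were 140 ± 10.8 in KO and 180 ± 7.23 CPM in WT (SD, n = 3). KO was thus at -0.37 on the log2 scale (SE 0.08, 95% interval -0.54 to -0.19, edgeR quasi-likelihood adjusted p = 0.0086), or 0.775 times WT. Of the 8 members, 1 fell and 0 rose in dendritic cells, where 21.6% of all tested genes were called in either direction and 9.42% as lower. On library totals alone the median gene of this comparison moves by -0.12 (log2), and the share of its calls that are higher in KO goes from 56.4 to 29.6%. In bulk libraries fewer cells of a type that expresses a gene and less RNA per cell cannot be told apart.

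The Cish call held in 11 of 13 alternatives, among them DESeq2 (adjusted p = 0.0024) and library totals alone (-0.48). It was lost without DC_KO replicate 1, the lowest library (-0.30, adjusted p = 0.05), and in 1 fit of all 24 libraries, which gives every cell type a shared spread (-0.37, adjusted p = 0.18). Markers of other cells also differed between the dendritic cell groups. The sum over 8 macrophage markers was 101 to 113 CPM in KO and 134 to 335 in WT. Of these 8, Timd4 (means of 27.2 and 29.1 CPM) stood higher here than in WT macrophages (0.574 CPM). The sum over 6 neutrophil markers was 1.32 to 1.85 CPM in KO and 3.14 to 13.3 in WT, with Ly6g at 0. It was mostly Csf3r (means of 1.51 and 5.98 CPM), which was at 666 CPM in WT macrophages. Each other neutrophil marker had a mean of at most 0.248 CPM in WT dendritic cells. The sum over 6 B cell markers was 13.9 to 24.4 CPM in KO and 6.52 to 13 in WT. Cish itself was at 21.2 CPM in WT macrophages, and without DC_WT replicate 3, the library with the highest macrophage and neutrophil sums, its log2 fold change was -0.34 (adjusted p = 0.039). The part of the other markers in the value was not tested.

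In the other cell types Cish was not called. B cells had 40.9, 52 and 47.2 CPM in KO and 62.6, 76.2 and 40.4 in WT (-0.36, SE 0.25, adjusted p = 0.56), and the groups overlapped through WT replicate 3. Without that library the value was -0.58 with an adjusted p of 0.011. T cells had 67.1, 60.8 and 75.5 CPM in KO and 60.9, 51 and 61.9 in WT (0.22, 95% interval 0.01 to 0.44, adjusted p = 0.26). Macrophages gave -0.14 (adjusted p = 0.81). No test of Cish between the KO effects of a pair of cell types passed, the smallest being dendritic cells against T cells (difference -0.59, 95% interval -1.14 to -0.04, adjusted p = 0.22).

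Socs1, with its 8mer, was not called in any cell type. Protein was not measured, so a change in Socs1 protein cannot be judged from these RNA counts. In dendritic cells KO libraries had 148, 154 and 154 CPM and WT libraries 139, 138 and 148 CPM, so that the groups were separated by less than the rounding. The log2 fold change was 0.10 (SE 0.07, adjusted p = 0.32), with a 95% interval of 0.964 to 1.19 times WT, and on library totals alone it was -0.01. B cells had 33.9, 47.6 and 45.6 CPM in KO and 45.6, 47.1 and 40.2 in WT, an interval of 0.796 to 1.14 times WT (adjusted p = 0.84). T cells had 35.9, 36.6 and 29.6 CPM in KO and 31.2, 31.9 and 36.2 in WT, an interval of 0.894 to 1.18 times WT (adjusted p = 0.88).

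In macrophages the interval for Socs1 ran from 0.393 to 2.22 times WT (log2 fold change -0.10, adjusted p = 0.94). The KO libraries were close together at 75.4, 65 and 71.8 CPM, and the WT libraries lay on both sides of them. Leaving out Mac_WT replicate 3 gave 0.70 (adjusted p = 0.27) and leaving out Mac_WT replicate 2 gave -0.52 (adjusted p = 0.41). With the replicate number as a block the value was 0.21 (adjusted p = 0.82). The SD of Socs1 over the WT macrophage libraries was 1.25 on the log2 scale, at the 99 percentile of tested genes.

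The same WT macrophage libraries ranked some other genes alike. Il6, a ligand that induces Socs3, had 22.6, 5.53 and 120 CPM in them, and Nos2, the inducible nitric oxide synthase of activated macrophages, 96.1, 12 and 150 CPM. Socs1, Socs3, Il6 and Nos2 were each lowest in replicate 2 and highest in replicate 3. Socs6 was the reverse, with 18.7, 35.3 and 14.7 CPM. Il6 and Nos2 were chosen after their values were seen. The sum of macrophage markers was 38300, 40000 and 29700 CPM in the same libraries, lowest in replicate 3, and its part in these values was not tested.

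Socs6, the other member with miR-155 sites, had KO libraries above WT libraries in dendritic cells, at 29.4, 22.6 and 25.3 against 19.8, 18.7 and 21.3 CPM, without passing the test (0.37, SE 0.12, 95% interval 0.10 to 0.64, adjusted p = 0.054). Over 13 alternatives its adjusted p ran from 0.053 to 0.23 and its value from 0.25 to 0.46. It was 0.25 in B cells (20.8, 16.5 and 15.1 against 13.8, 15.9 and 14.3 CPM, adjusted p = 0.31), 0.15 in T cells (adjusted p = 0.45) and -0.02 in macrophages (adjusted p = 0.98).

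Set beside other genes with an 8mer, Socs1 lay in the lower part and Socs6 in the upper part outside macrophages. Genes with an 8mer had a median log2 fold change of 0.201 in dendritic cells, 0.089 in B cells, 0.176 in macrophages and 0.069 in T cells, and 31.2, 14.6, 1.73 and 8.93% of them rose. Of genes with no site, 9.86, 1.26, 0.43 and 0.927% rose in the same order of cell types. Socs1 exceeded 37.8% of 352 genes with an 8mer in dendritic cells, 21.3% of 328 in B cells, 42.4% of 347 in T cells and 18.4% of 347 in macrophages. The shares below Socs6 were 68.5% in dendritic cells, 73.8% in B cells, 66.9% in T cells and 26.5% in macrophages. These are positions of fitted values and carry no test.

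**Figure D3:**
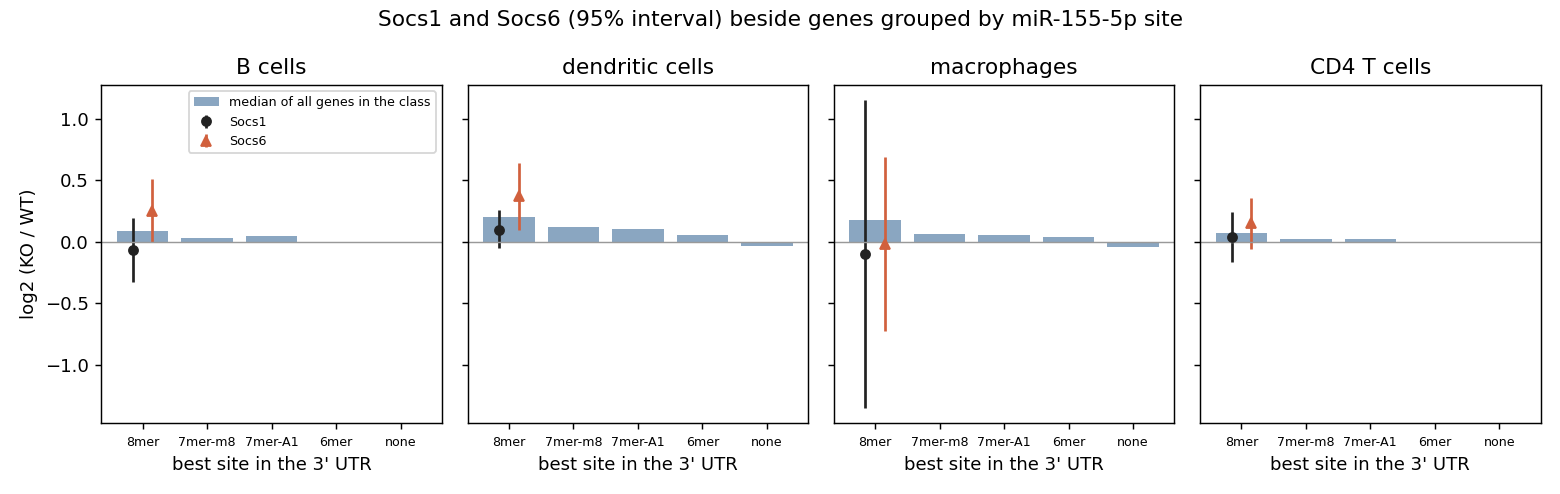
Log2 ratio of KO to WT for Socs1 (circle) and Socs6 (triangle) with 95% intervals, in 1 panel per cell type, beside bars for the median of all tested genes grouped by their best miR-155-5p site. The 8mer bars are the tallest in each panel, and the interval of Socs1 includes 0 in all 4 cell types and spans from -1.35 to 1.15 in macrophages.

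Socs3 had KO libraries at 11.1, 11.1 and 8.95 CPM and WT libraries at 13.3, 12.1 and 27.7 CPM in dendritic cells (-0.76, SE 0.31, adjusted p = 0.12; DESeq2 adjusted p = 0.034). WT replicate 3 stood apart, and without it the value was -0.29 (adjusted p = 0.27). That library also held the highest sums of macrophage markers (335 CPM against 134 and 171 in the other WT libraries) and neutrophil markers (13.3 against 3.56 and 3.14). The neutrophil sum was mostly Csf3r, a gene also high in WT macrophages (666 CPM), where Socs3 is 254 CPM. All 8 listed macrophage markers had a lower mean in KO than in WT dendritic cells, among them Lyz2 (21.8 against 65 CPM), Adgre1 (21.6 against 30.4) and Mertk (1.37 against 1.47). Timd4 (27.2 against 29.1), also of the 8, was at 0.574 CPM in WT macrophages and so does not mark them here. The part of the listed markers in the Socs3 value was not tested.

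In dendritic cells the KO and WT libraries of 7 of the 8 members did not overlap, where 41.2% of tested genes did not, and the exception was Socs4. KO lay above WT for Socs1, Socs2, Socs6 and Socs7 and below for Socs3, Socs5 and Cish. In B cells, macrophages and T cells the count was 0 of 8, against 21.9, 24.6 and 22.5% of tested genes. No member was called there (0 of 8 in each, at a background of 3.2, 0.885 and 2.15%). Before adjustment the edgeR test gave Cish in T cells 0.041, the lowest in these 3 cell types, with 1 value under 0.05, and in dendritic cells Cish, Socs6 (0.012) and Socs3 (0.04) were under it. By DESeq2 the calls were Cish and Socs3 in dendritic cells.

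The remaining values were not called. Socs3 was 0.38 in T cells (95% interval -0.04 to 0.79, edgeR adjusted p = 0.32), opposite in sign to dendritic cells. It was 0.13 in B cells (adjusted p = 0.82) and 0.07 in macrophages (adjusted p = 0.9). Socs2 in dendritic cells was 0.13 (95% interval -0.03 to 0.28), and in B cells -0.44 (95% interval -1.70 to 0.82), where WT libraries ran from 3.22 to 12.8 CPM. Socs7 was 0.24 in dendritic cells (adjusted p = 0.17), 0.34 in macrophages (adjusted p = 0.34) and 0.17 in T cells (adjusted p = 0.45). Socs4 stayed between -0.10 and 0.09 and Socs5 between -0.20 and -0.03 over the 4 cell types. The median over the 8 members was 0.02 in dendritic cells, -0.09 in B cells, 0.14 in T cells and 0.01 in macrophages, beside medians over all tested genes of -0.011, -0.002, -0.001 and -0.02.

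**Figure D4:**
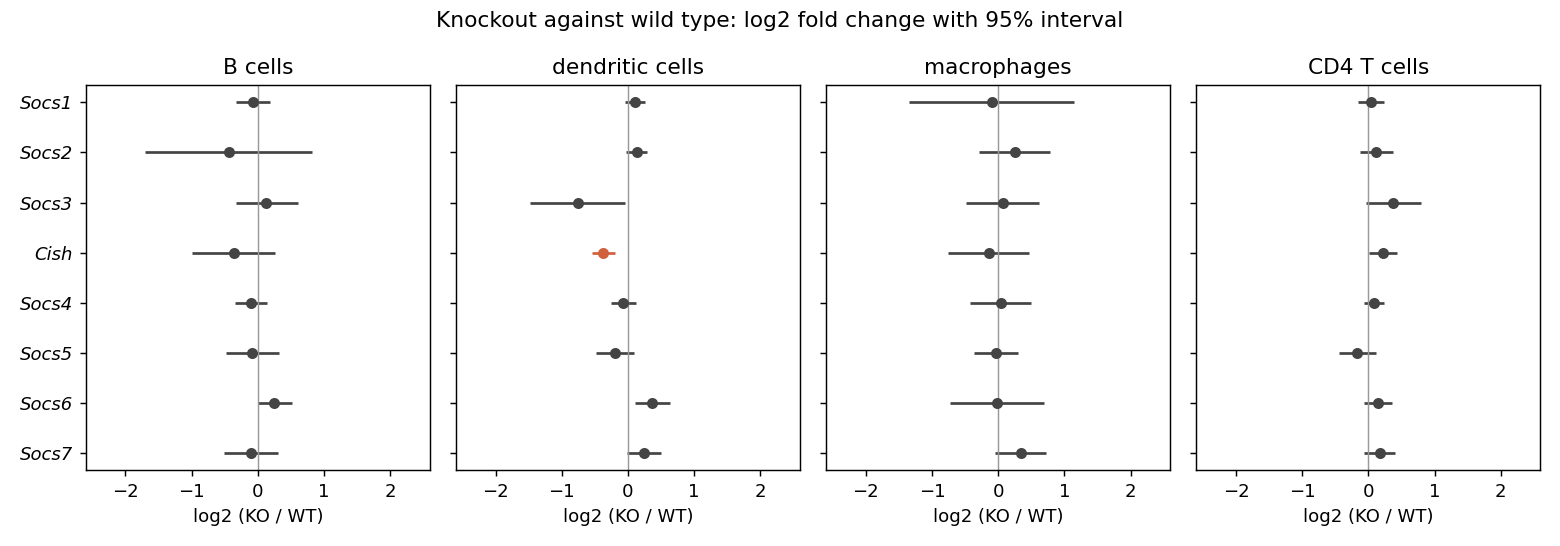
Log2 ratio of KO to WT for each member in the 4 cell types, with 95% intervals from the edgeR fit of that cell type. Cish in dendritic cells (-0.37, orange) is the member past the threshold, and the intervals of Socs1 in macrophages and Socs2 in B cells are the widest.

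A fit of all 24 libraries tested the difference in KO effect from one cell type to another. No member passed over the 4 cell types together, where 12.6% of 12249 genes did. The smallest adjusted p was that of Socs3 (0.28; DESeq2 0.12), followed by Cish (0.31; DESeq2 0.32), and unadjusted they were 0.1 and 0.12. Of 48 tests between pairs of cell types 0 passed, with edgeR (smallest adjusted p = 0.2, Socs3 in dendritic cells against T cells, difference -1.14, 95% interval -2.15 to -0.12). The share of all genes that passed was 5.63% for B cells and dendritic cells, 2.67% for B cells and macrophages, 0.0571% for B cells and T cells, 9.27% for dendritic cells and macrophages, 6.1% for dendritic cells and T cells and 3.63% for macrophages and T cells. Without B_WT replicate 3 Socs2 passed (adjusted p = 0.016), and without Mac_WT replicate 3 Cish did (adjusted p = 0.048).

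Genes around the family in the same pathway were counted from lists of ligands, receptors, kinases, STATs and STAT targets. In KO dendritic cells, where 12.2% of tested genes rose and 9.42% fell, 3 of 7 tested ligands rose and 1 fell. Il12b, a subunit of IL-12 and IL-23, went from 27.3 ± 6.11 to 62.3 ± 10.3 CPM (log2 fold change 1.19, adjusted p = 0.00088), and Il12a fell from 2.9 ± 1.62 to 0.772 ± 0.261 CPM (-1.87, adjusted p = 0.02). Of 27 receptors 6 rose and 3 fell, led by Il7r, which signals to STAT5 (309 ± 28 to 554 ± 25.1 CPM, 0.84, adjusted p = 0.00013), and Il6ra, the IL-6 receptor (1.14, adjusted p = 0.002). Among the 3 that fell was Il2rg, the common gamma chain (-0.23, adjusted p = 0.035). The GM-CSF receptor chains Csf2ra (0.00, adjusted p = 1) and Csf2rb (0.11, adjusted p = 0.52), through which the added GM-CSF acts and can induce Cish, did not pass. The part of these receptors in the Cish value was not tested.

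Of the 4 kinases, Jak2 rose (0.29, adjusted p = 0.017) and Jak3 fell (-0.37, adjusted p = 0.006). Among the STATs, Stat4 was called as higher (0.47, adjusted p = 0.0023), and Stat5a (-0.01, adjusted p = 0.94) and Stat5b (-0.21, adjusted p = 0.15), the factors that induce Cish, did not pass. Among 16 other inhibitors of the pathway 8 rose and 2 fell. Pias1, an inhibitor of STATs (102 ± 4.14 to 147 ± 3.88 CPM, 0.52, adjusted p = 6e-04), the phosphatase Ptpn2 (0.57, adjusted p = 0.001) and the ubiquitin ligase Cblb (0.59, adjusted p = 0.0011) were among those that rose. Of the 6 genes listed as partners of the SOCS box ligase, 1 rose (Cul2, 0.24, adjusted p = 0.043) and 0 fell. The Cul2 call was lost without DC_WT replicate 3 (0.21, edgeR adjusted p = 0.13). Cul5 (-0.14, adjusted p = 0.27) and Rnf7 (0.11, adjusted p = 0.73), also listed, were not called.

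STAT5 targets other than Cish went both ways in dendritic cells, with 2 of 11 higher and 2 lower. Of all tested genes there, 12.2% rose and 9.42% fell, and the lists were chosen with earlier results of these data known. Pim1, a survival kinase, rose from 359 ± 11.2 to 466 ± 19.1 CPM (0.37, adjusted p = 0.0044) and Osm, named after its value was seen, rose by 0.30 (adjusted p = 0.039), while Bcl2l1, which encodes BCL-XL, fell by 0.91 (adjusted p = 0.00019) and Lta by 1.42 (adjusted p = 0.017). Of 6 STAT6 targets 0 rose and 3 fell, the chemokines Ccl22 (1090 ± 74.7 to 640 ± 15.1 CPM, -0.77, adjusted p = 0.00013) and Ccl17 (-1.17, adjusted p = 0.0059) and the transcription factor Batf (-1.37, adjusted p = 0.0016). Of 9 STAT3 targets, which Socs3 restrains, 4 rose and 1 fell. The lists share genes, so Pim1 is counted among both STAT5 and STAT3 targets and Osm among both ligands and STAT5 targets.

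Some of these dendritic cell counts rest on the scaling or on 1 library. On library totals alone Jak2 (0.17, adjusted p = 0.097), Osm (0.19, adjusted p = 0.15) and Cul2 (0.12, adjusted p = 0.22) were not called, and 5 receptors were higher and 6 lower. Without DC_WT replicate 3 the ligands went to 1 higher and 0 lower, with Il12a at -1.33 (adjusted p = 0.065), the STAT3 targets to 2 and 1 and the STAT5 targets to 1 and 2. The 3 STAT6 targets stayed lower in both settings, and of the other inhibitors 7 were higher and 2 lower in either.

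In B cells, where 3.2% of all tested genes were called, the receptors Il6ra (0.87, adjusted p = 0.0081) and Il9r (0.60, adjusted p = 0.01) rose and Il2rb fell (-1.59, adjusted p = 0.0065), with 24 tested, and 0 of 4 kinases and 0 of 7 STATs were called, from which nothing is read at that background. Ccl22 was higher in KO B cells (25.5 ± 3.64 to 59.2 ± 4.22 CPM, 1.22, adjusted p = 1.2e-06) and T cells (0.89, adjusted p = 0.038). In T cells, with 2.15% of tested genes called, Il2, the ligand that induces Cish and Socs1 there, fell from 15 ± 2.25 to 8.02 ± 1.45 CPM (-0.90, adjusted p = 0.012), and of 12 STAT5 targets Pim2 rose (0.36, adjusted p = 0.029) and Lta fell (-0.66, adjusted p = 0.0045). Macrophages, with 0.885% of tested genes called, had 3 calls over the lists described, the receptors Osmr (1.96, adjusted p = 0.041) and Lepr (2.65, adjusted p = 0.049) up and Ccl17 down (-3.12, adjusted p = 0.03). Stromal markers summed to 327 to 764 CPM in KO and 130 to 344 CPM in WT macrophages, and their part was not tested. Without a KO macrophage library or without Mac_WT replicate 1, at most 1 gene was called in macrophages, against 95 with all 6 libraries and 265 with the replicate block.

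By likeness of pattern over the 8 group means, the genes nearest to Socs3 were Uap1l1 (Pearson r of 0.999), Pnpla7 and Mrc1 (both 0.997), those nearest to Cish were Dhx35 (0.996), Tspan13 (0.994) and Clec2i (0.993), and those nearest to Socs1 were Adrbk2, Nostrin and Ccl5 (each 0.996), out of 10918 genes with at least 5 CPM in a group. Socs2 was nearest to Rab26, Echdc2 and Serpinb9 (each 0.997) and Socs6 to Mlycd (0.986), Tmem234 (0.976) and Bach1 (0.973). Nearest to Socs4 were Mcm9 (0.994), Pla2g16 (0.986) and Angel2 (0.984), to Socs5 Fyb (0.995), Acad8 (0.993) and Mtmr7 (0.989), and to Socs7 Nr2c2 (0.953), Arel1 (0.945) and Trp53inp1 (0.935). The points share libraries and cell types, and the values are a description. Ranked by Spearman correlation over 24 libraries the same genes fell between place 3 and place 854, with Tmem234 for Socs6 at place 3 and Rab26 for Socs2 at place 854.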

How the data were processed

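For each of 24 libraries the authors deposited a raw count per gene symbol, in whole numbers. The deposited files are named as counts over coding sequence, so reads in untranslated regions, where the miR-155 sites lie, may not be counted. Per the submitters' processing notes, cutadapt, STAR and the mm9 build were used, with no versions. The sources used here do not name the counting tool or its use of strand, and without strand reads of overlapping or antisense genes cannot be told apart. Left out were 5 lines without a gene name, and reads outside counted features made up 51.4 to 61.1% of all counts in a library.

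Counts were tested with edgeR 4.0.16 in R 4.3.3 (TMM, filterByExpr, robust quasi-likelihood F test, two-sided) within each cell type, and in 1 fit of 24 libraries between cell types, and calls needed a p under 0.05 after Benjamini-Hochberg adjustment over all genes tested. SEs are the size of the log2 fold change over the square root of F. DESeq2 1.42.0, other scalings and filters, a replicate block and leaving out each library were alternatives. The fits were tested on simulated data, with 100 genes changed 1.5-fold and 100 changed 2-fold. Between KO and WT, a 1.5-fold change was called for 10% of these genes in macrophages (66% at 2-fold). The shares were 47% (87%) for dendritic cells, 80% (90%) for T cells and 76% (91%) for B cells. They were 20% (47%) for the KO effect over all cell types, and 16% (48%) for dendritic cells against macrophages. A 1.5-fold change can thus be missed, most of all in macrophages and between KO effects. Replicate numbers follow the sample titles. The deposited files number the WT B cell libraries differently, which bears on every pairing or block in B cells and on which library a B_WT number names. Every library pair within a group differed by more than counting noise (chi-square per gene of 2.08 to 160.71 over genes with at least 20 counts). The numbers were judged to pair libraries, from the data alone, only where all 3 same-numbered pairs of KO and WT libraries deviated together with r above 0.1 over genes, which held in macrophages (0.12, 0.30 and 0.39). The main macrophage tests nevertheless ignore this pairing, as no main test holds a block. With the block Socs1 in macrophages went from -0.10 to 0.21. In B cells (0.18, 0.03 and 0.22), dendritic cells (-0.02, 0.14 and -0.09) and T cells (0.04, 0.06 and -0.24) some pairs did and others did not.

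Sites and lengths came from GENCODE M21 on GRCm38, not the files' build. Promoter and microRNA sequences are RefSeq's; 4 of the 8 members had a promoter entry. All 8 members were named, with up to 3 called genes of each pathway list and cell type with the smallest p, genes a sentence on a member needs, Mrpl39, and the 3 genes most like each member by Pearson correlation of log2 CPM (prior count 2), predicted genes passed over. The members and lists were chosen with earlier results of these data known. Some genes of the pathway and 1 of the lists are not reported here.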

Additional observations from a re-analysis of the deposited data

How the results depend on the processing

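Counts of called genes moved with the setting while the calls of members mostly did not. Without filter on low counts 501 genes were called in B cells and 478 in T cells, against 325 and 223, in 1 fit of all libraries 81, 1755 and 63 in B cells, macrophages and T cells, and by DESeq2 586 in macrophages against 95. With the replicate block the counts were 1260 in B cells, where the numbering is uncertain, and 265 in macrophages. In B cells, dendritic cells and T cells not every same-numbered pair deviated together, and not every library correlated best with its own number. The block changed no call of a member between KO and WT. Leaving out 1 library gave 141 to 441 calls in B cells, 1176 to 2870 in dendritic cells (2279 with all), 0 to 2746 in macrophages, 32 to 598 in T cells and 1121 to 3619 for the KO effect between cell types (1548 with all), the extremes in macrophages being without Mac_KO replicate 1 and without Mac_WT replicate 3. The cause was not tested. On library totals alone the share of calls that are higher in KO went from 62.8 to 48.1% in T cells.

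Values that changed sign were all of members not called. On library totals alone Socs1 in dendritic cells was -0.01, where the median gene moved by -0.12, and Socs6 in macrophages 0.01. With the replicate block Socs1 in macrophages was 0.21 and Socs6 0.07. Without 1 library, B cell values ran from -0.17 to 0.07 (Socs1), -0.81 to 0.05 (Socs2), -0.01 to 0.33 (Socs3), -0.21 to 0.01 (Socs4), -0.23 to 0.04 (Socs5), -0.30 to 0.09 (Socs7), macrophage values from -0.52 to 0.70 (Socs1), -0.14 to 0.34 (Socs3), -0.08 to 0.22 (Socs4), -0.11 to 0.08 (Socs5), -0.25 to 0.44 (Socs6), -0.30 to 0.23 (Cish), and Socs1 in T cells from -0.02 to 0.13. No 3' UTR of a member other than the longest held a stronger site.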
